A study of Homo sapiens with 4 samples.

Results

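Accessible chromatin was examined at 10 genes that mark neurosecretory granules and synaptic vesicles: CHGA, CHGB, SCG2, SCG3, PCSK1, SYP, SYT1, SNAP25, ENO2 and UCHL1. They were taken by name, as 10 of 20033 protein-coding genes of GENCODE release 44 on hg38, and every called interval in each gene body and 50 kb either side was collected. The data are ATAC-seq, in which the Tn5 transposase inserts adapters where DNA is not covered by nucleosomes, so that reads pile up over open regulatory DNA. C4-2B is labelled human prostate adenocarcinoma. C4-2BER, titled C4-2B_Enza_Resist and labelled neuroendocrine-like, is its enzalutamide-resistant counterpart and, by the study's methods, was kept in continuous enzalutamide, an inhibitor of androgen receptor signalling. The labels give both the same serum-containing RPMI medium. Each group is a single established line with 2 libraries, so resistance, the drug in the medium and any other difference between these cell stocks cannot be told apart.

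The 2 libraries of a line were merged before peaks were called, so each line is 1 list, with no replicate spread and no test between lines. Reads under a summit were recovered from the deposited fold enrichment and −log10 p, and the 95% intervals given with them (exact Poisson for a level, exact binomial for a ratio) cover counting error only. The C4-2B list held 149676 intervals at a recovered depth of 30.2 M reads, and the C4-2BER list held 118728 intervals at 25.2 M reads. Of 8 luminal prostate genes, 8 had an open start site in both lists. Among neuroendocrine regulators, POU3F2 and SOX2 were open at the start site in both lists, INSM1 and FOXA2 in C4-2BER alone, and NEUROD1 in neither. None of the 3 blood, 3 endothelial and 3 fibroblast genes examined had an open start site in either list.

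Neuroendocrine cells store peptides in dense-core granules. Granins such as chromogranins and secretogranins condense the cargo, prohormone convertases cut it, and calcium sensors and SNARE proteins fuse the vesicle with the plasma membrane. Outside neurons and endocrine cells many of these genes are held silent by REST, a repressor that binds the RE1 element, and several granin genes carry a cyclic AMP response element (CRE) near the start site. Pathologists stain for chromogranin A, synaptophysin and neuron-specific enolase to recognise neuroendocrine prostate cancer.

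The canonical start site was inside an interval for 6 of the 10 genes in C4-2B and 9 of the 10 in C4-2BER. CHGB, SCG2, SCG3, SYP, SNAP25 and ENO2 were covered in both lists. CHGA, SYT1 and UCHL1 were covered in C4-2BER only, PCSK1 in neither, and 0 genes in C4-2B only. Over all protein-coding genes the start site was covered for 65.6% in the C4-2B list and for 69.7% in that of C4-2BER, for 5.47% in C4-2BER only and for 1.32% in C4-2B only. With only intervals of a −log10 q of at least 5 or 10, the count in C4-2BER only was again 3. With the top 50000 intervals of each list it was also 3. Lists of equal size and C4-2B scaled to the depth of C4-2BER gave 3 as well. Those settings remove only C4-2B intervals, so under them the count could not fall. With any start site of a protein-coding transcript the count was 2, because the start of SYT1-202 was covered in both lists.

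**Figure D1:**
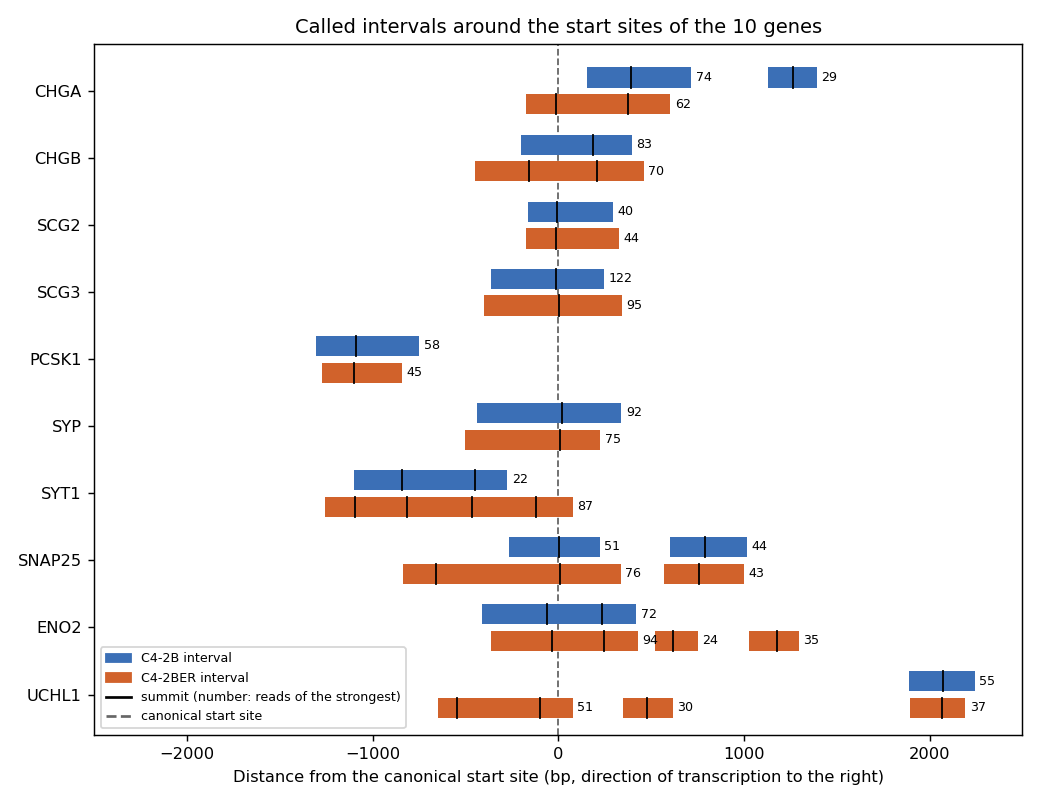
Called intervals (bars) of C4-2B and C4-2BER around the canonical start site of each gene, by distance in bp along the direction of transcription, with every deposited summit of the promoter as a tick and the reads under the strongest summit of each interval as a number. The C4-2BER bars of CHGA, SYT1 and UCHL1 reach the dashed start site and the C4-2B bars do not.

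Counting every annotated start position of the 10 genes, coding or not, gave 103 positions. Of these, 34 were covered in both lists, 32 in C4-2BER only, 0 in C4-2B only and 37 in neither. Over 146431 start positions of all protein-coding genes, 3.67% were covered in C4-2BER only and 1.60% in C4-2B only. The 32 positions lay in 5 genes, with 15 in SYT1, 10 in UCHL1, 3 in CHGA, 3 in SNAP25 and 1 in ENO2. Positions of a gene often share an interval, so they are not separate observations.

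The reads under the highest summit within 2000 bp of a start site were compared in reads per M reads of list depth, which could be done for the 9 genes with such a summit in both lists. Summed over these 9, C4-2BER had 1.26 times the C4-2B reads (95% interval 1.13 to 1.41), but the median gene had a ratio of 1.01, so the sum was carried by a few genes. The median over 15403 genes was 1.10 (quartiles 1.00 and 1.20), and ratios can be read against that shift. SYT1, SNAP25 and ENO2 were at least 1.5-fold higher in C4-2BER and 0 were 1.5-fold lower, where 7.45% of all genes were higher and 3.26% lower by that size. CHGA, CHGB, SYP, SCG3 and PCSK1 lay between 0.928 and 1.01.

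**Figure D2:**
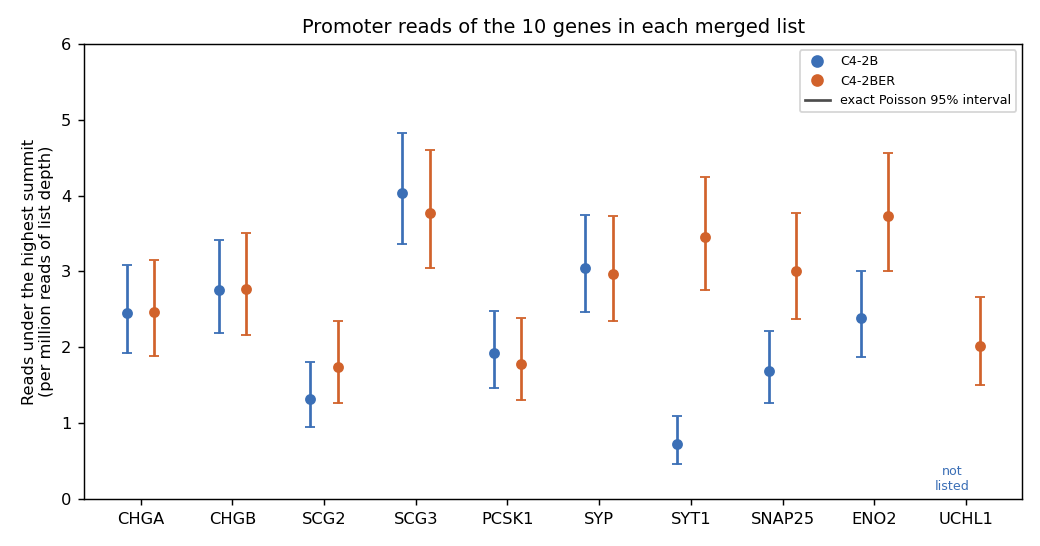
Reads under the highest summit within 2000 bp of a start site, in reads per M of list depth, for each gene in each merged list, with exact Poisson 95% intervals for counting error. The intervals of the lines are apart for SYT1, SNAP25 and, narrowly, ENO2, and for UCHL1 the C4-2B list holds no summit there.

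Rank within the own list, by −log10 p, does not use the recovered depth, but it depends on the length of the list and the local background, so a shift in rank is not by itself a change in reads. The strongest promoter interval of SYT1 moved from percentile 45.5 to 90.6, SNAP25 from 72.9 to 86.7, ENO2 from 77.8 to 90.7 and SCG2 from 73.2 to 85.7. These 4 rose by at least 10 points and 0 fell by that much, where 10.8% of all genes rose and 4.59% fell. With the top 50000 intervals of each list the counts were again 4 and 0, but not for the same genes. The C4-2B interval of SYT1, at percentile 45.5 of 149676 intervals, is not among the top 50000. SYT1 therefore drops out of that count and another gene enters it. The counts were also 4 and 0 with lists of equal size, but that setting can only lower C4-2B ranks. In the full lists CHGA, CHGB, SCG3, SYP and PCSK1 moved by less than 5 points, and the ranks of UCHL1 belong to different sites in the lists. The median rank over the 10 genes was 79.9 for C4-2B and 88.3 for C4-2BER, below the all-gene medians of 92.1 and 93.0 in both lists. The C4-2B median includes UCHL1 at percentile 80.5, the value of a site inside the gene.

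The strongest promoter interval was wider in C4-2BER for 7 of the 10 genes and narrower for SYP, ENO2 and PCSK1. UCHL1 is among the 7, but its intervals in the lists are not the same site, and without it 6 of 9 (66.7%) were wider. This share is near the 60.7% of all genes.

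CHGA encodes chromogranin A, the granin most used as a neuroendocrine marker (chr14:92923150-92935285, forward strand). In C4-2B its promoter interval was chr14:92923306-92923864, with 74 reads at the summit, 391 bp downstream of the start site, and it began 156 bp short of the start site. In C4-2BER the interval was chr14:92922974-92923752, with 62 reads at the main summit, 373 bp downstream, and a second summit of 26 reads 13 bp upstream of the start site. At the local background of the C4-2B interval, a summit would have needed about 18 reads to be listed. The main site stood at 2.45 and 2.46 reads per M (ratio 1.00, interval 0.704 to 1.42), and the difference between the lists was the extension over the start site. C4-2B alone had an interval of 29 reads 1262 bp downstream of the start site.

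The stretch of CHGA that only the C4-2BER interval covered upstream of the start site, chr14:92922974-92923149, forward strand, is shown because it holds the CRE (TGACGTCA), 47 bp before the start site. Capitals mark the CRE and an SP1 box (GGGCGG).
CHGA upstream: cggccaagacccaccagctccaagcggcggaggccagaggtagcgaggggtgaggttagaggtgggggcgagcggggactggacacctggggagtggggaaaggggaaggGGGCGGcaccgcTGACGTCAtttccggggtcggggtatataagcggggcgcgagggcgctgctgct

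CHGB encodes chromogranin B, a second major granin (chr20:5911510-5925353, forward strand). Its promoter was covered in both lists, by chr20:5911311-5911905 in C4-2B and chr20:5911058-5911969 in C4-2BER. The main summit held 83 and 70 reads, or 2.75 and 2.77 reads per M (ratio 1.01, interval 0.724 to 1.40). C4-2BER had an additional summit of 34 reads 161 bp upstream of the start site and an interval 317 bp wider, while its rank fell by 4.43 points.

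SCG2 encodes secretogranin II, the precursor of secretoneurin (chr2:223596940-223602361, reverse strand). Its summit lay over the start site in both lists, with 40 C4-2B and 44 C4-2BER reads, or 1.32 and 1.74 reads per M. The ratio of 1.32 had an interval of 0.838 to 2.07, which includes no change, although the rank rose by 12.5 points. SCG3, secretogranin III, anchors granin aggregates to the granule membrane (chr15:51681492-51721026, forward strand). It had the strongest promoter of the 10 in both lists, with 122 C4-2B and 95 C4-2BER reads, or 4.04 and 3.77 reads per M (ratio 0.932, interval 0.705 to 1.23).

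The upstream DNA of SCG2 (chr2:223602362-223602511, reverse strand) is given beside that of CHGA because it has a CRE, in capitals, 62 bp before the start site. Unlike that of CHGA, this CRE was inside an interval of both lists.
SCG2 upstream: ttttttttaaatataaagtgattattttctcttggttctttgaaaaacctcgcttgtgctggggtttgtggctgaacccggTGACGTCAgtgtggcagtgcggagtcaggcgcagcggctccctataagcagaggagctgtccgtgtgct

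PCSK1 encodes prohormone convertase 1, which cuts granule precursors (chr5:96390333-96434143, reverse strand). Its promoter interval lay upstream of the canonical start site in both lists, at chr5:96433999-96434555 with 58 reads in C4-2B and at chr5:96434092-96434522 with 45 reads in C4-2BER. The canonical start site was 751 bp and 844 bp from the interval. In both lists the interval covered the start of another protein-coding transcript, PCSK1-203. The promoter stood at 1.92 and 1.78 reads per M (ratio 0.928, interval 0.615 to 1.39).

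SYP encodes synaptophysin, an abundant membrane protein of small vesicles (chrX:49187815-49200218, reverse strand). Its promoter was open over the start site in both lists, with 92 C4-2B and 75 C4-2BER reads, or 3.05 and 2.97 reads per M (ratio 0.975, interval 0.709 to 1.34). The C4-2BER interval was 50 bp narrower.

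SYT1 encodes synaptotagmin 1, the calcium sensor that triggers vesicle fusion (chr12:78863993-79452008, forward strand), and it had the largest read ratio of the 9 genes with a summit in both lists. In C4-2B the interval chr12:78863674-78864497 held summits of 21 reads, 840 bp upstream of the canonical start site, and 22 reads, 452 bp upstream, and it ended 277 bp short of the start site. The interval did cover the start of another protein-coding transcript, SYT1-202. In C4-2BER the interval chr12:78863515-78864850 held 4 summits, of 34 reads at 1096 bp upstream, 87 at 815 bp, 55 at 466 bp and 83 at 123 bp, and it ran over the start site. The highest summits came to 0.729 reads per M for C4-2B and 3.45 for C4-2BER (ratio 4.73, interval 2.94 to 7.94). The local background rose as well, from 2.24 reads per 200 bp in C4-2B, the genome-wide floor of that list, to 7.68 in C4-2BER.

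C4-2BER alone also opened the start sites of shorter SYT1 transcripts, 181 kb inside the gene. The interval chr12:79045016-79045923 held summits of 29 and 19 reads. The next sequence is the DNA upstream of the main SYT1 start sites that lies past the C4-2B interval and inside the C4-2BER interval, chr12:78864498-78864719, on the forward strand. Capitals mark an SP1 box (GGGCGG).
SYT1 main promoter: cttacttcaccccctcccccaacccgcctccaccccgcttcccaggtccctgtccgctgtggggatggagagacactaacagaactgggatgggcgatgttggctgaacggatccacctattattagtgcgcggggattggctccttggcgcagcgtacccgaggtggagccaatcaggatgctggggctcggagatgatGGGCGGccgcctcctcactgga

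SNAP25 encodes a SNARE protein of the fusion complex (chr20:10172395-10308258, forward strand). Over its canonical start site C4-2B had chr20:10218562-10219053 with 51 reads, and C4-2BER had chr20:10217995-10219164 with 76 reads, or 1.69 and 3.01 reads per M (ratio 1.78, interval 1.23 to 2.59). The C4-2BER interval was 678 bp wider and had an additional summit of 45 reads 661 bp upstream. The second promoter interval, inside the gene, held 44 reads in C4-2B, 789 bp downstream, and 43 in C4-2BER, 760 bp downstream (ratio 1.17, interval 0.750 to 1.82). Its fold enrichment went from 8.27 to 4.90. The ratio was higher at the start site than at this second site, but their intervals overlap. C4-2BER alone had an interval of 9 reads over the start of SNAP25 transcripts with no defined coding sequence, 46.4 kb upstream.

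ENO2 encodes neuron-specific enolase, a glycolytic enzyme of the cytoplasm (chr12:6913745-6923698, forward strand). Its promoter had a pair of summits in both lists. The one 59 bp upstream of the start site in C4-2B held 57 reads and its C4-2BER counterpart, 34 bp upstream, held 70, while the one 234 bp downstream held 72 for C4-2B and 94 for C4-2BER, 244 bp downstream. The higher one came to 2.38 and 3.73 reads per M (ratio 1.56, interval 1.14 to 2.15), and relative to the median of all promoters this ratio was 1.42, under the 1.5-fold size. C4-2BER alone had intervals of 24 and 35 reads 619 bp and 1175 bp downstream, the first over the start of ENO2-205.

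UCHL1 encodes a neuronal ubiquitin hydrolase, also called PGP9.5 (chr4:41256413-41268455, forward strand). C4-2B had no summit within 2000 bp of any UCHL1 start site used. C4-2BER had chr4:41256280-41257004 over the start site, with 51 reads (2.02 reads per M, interval 1.5 to 2.66) 97 bp upstream, and chr4:41257274-41257543 with 30 reads. At the floor of the C4-2B list a summit would have needed 8 reads and at the nearest local background 10, so any C4-2B signal there was under the level that is listed, and no fold is given. An interval inside the gene was shared, with 55 reads in C4-2B 2073 bp downstream and 37 in C4-2BER (ratio 0.805, interval 0.516 to 1.24), an interval of the ratio that includes no change. This C4-2B interval, chr4:41258817-41259169, is the one that enters the rank and width of UCHL1.

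The DNA around the C4-2BER summit of UCHL1 that lies between annotated untranslated regions (chr4:41256804-41256910, forward strand) is shown as part of the promoter found in that list alone. This stretch is GC-rich (65.4% G or C) and none of the motifs searched was found within it, so there are no capitals. An SP1 box (GGGCGG) did lie within 100 bp of the same summit, but not within this stretch.
UCHL1 promoter: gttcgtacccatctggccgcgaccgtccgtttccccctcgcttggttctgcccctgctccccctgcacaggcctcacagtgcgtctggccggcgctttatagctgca

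RE1 elements were searched by their consensus on both strands. Within the windows of the 10 genes there were 5 exact matches, and 4 of them lay in an interval of both lists. Genome-wide, 4068 matches were found, of which 15.8% lay in a C4-2B interval and 14.7% in a C4-2BER interval. The 4 open elements are shown because the accessible summits lay on or near them, with the element in capitals, each on the forward strand: CHGA chr14:92923523-92923539, CHGB chr20:5911704-5911720, SNAP25 chr20:10219672-10219688 and the flank of PCSK1 chr5:96484053-96484069.
CHGA RE1: cgagttTTCAGCACCGCGGACAGcgcctc
CHGB RE1: gggccgGTCAGCACCGCGGACAGcgccag
SNAP25 RE1: cgacctTTCAGCACCGGGGACAGcggtcc
PCSK1 flank RE1: ccaaacTTCAGAACCTAGGACAGcacctg

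The middle of the element was 10 bp from the C4-2B summit and 8 bp from the C4-2BER summit at CHGA, and 13 bp and 4 bp at CHGB. At the PCSK1 flank it was 5 bp and 2 bp away, and at SNAP25 61 bp and 90 bp. Reads per M at these sites were close in the lines: 2.45 and 2.46 reads per M at CHGA, 2.75 and 2.77 at CHGB, 1.46 and 1.70 at SNAP25 and 0.961 and 0.951 at PCSK1. At CHGA, CHGB and SNAP25 the additional C4-2BER summits were upstream of the start site, away from the RE1. An exact RE1 lay within 100 bp of the strongest summit in 3 of 11 member promoter intervals of C4-2B and 3 of 15 of C4-2BER, against 0.457% and 0.366% of all promoter intervals. With 1 mismatch allowed, SYP was added in both lists, against 1.65% and 1.41%.

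The other motifs searched within 100 bp of the strongest summit of each interval, on both strands, were the CRE and the shorter TGACGT within it, an E-box (CAGCTG), the SP1 box, a forkhead motif (TGTTTAC), an androgen response motif (AGAACA), an AP-1 site (TGANTCA) and a PBX-HOX site (TGATTNAT). The CRE was near that summit in 2 of 11 and 2 of 15 member promoter intervals, those of SNAP25 and SCG2, against 1.58% and 1.81% of all promoter intervals. The CRE of CHGA, 47 bp before the start site, was not counted. It lies near the weaker C4-2BER summit 13 bp upstream of the start site, and weaker summits were not searched. The androgen response motif was near 0 of 11 and 0 of 15, against 8.83% and 6.97%, and with so few intervals 0 is close to those shares. The E-box was near 4 of 11 and 2 of 15, against 13.6% and 13.3%. In the RefSeq promoters of the reference table, which matched 7 of the 10 genes, the CRE was in CHGA and PCSK1 and in 1.85% of 35116 promoters. The SP1 box was in all 7 matched and in 45.0% overall. A match describes letters and does not show that a factor binds.

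In the gene bodies and 50 kb either side, C4-2B had 107 intervals and C4-2BER had 98, and in each list they covered 60.7 kb. The order turned with lists of equal size, at 89 and 98, but that setting takes intervals only from C4-2B. Counting each summit gave 148 and 149. More intervals were listed in C4-2BER for 2 genes, SCG3 and UCHL1, and fewer for 6, with CHGB and SCG2 equal. Over all protein-coding genes 17.1% of windows had more C4-2BER intervals and 68.5% had fewer. By place, 11 C4-2B and 15 C4-2BER intervals were at the promoter of the gene itself, 24 and 22 at the promoter of a neighbour, and 72 and 61 were distal.

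**Figure D3:**
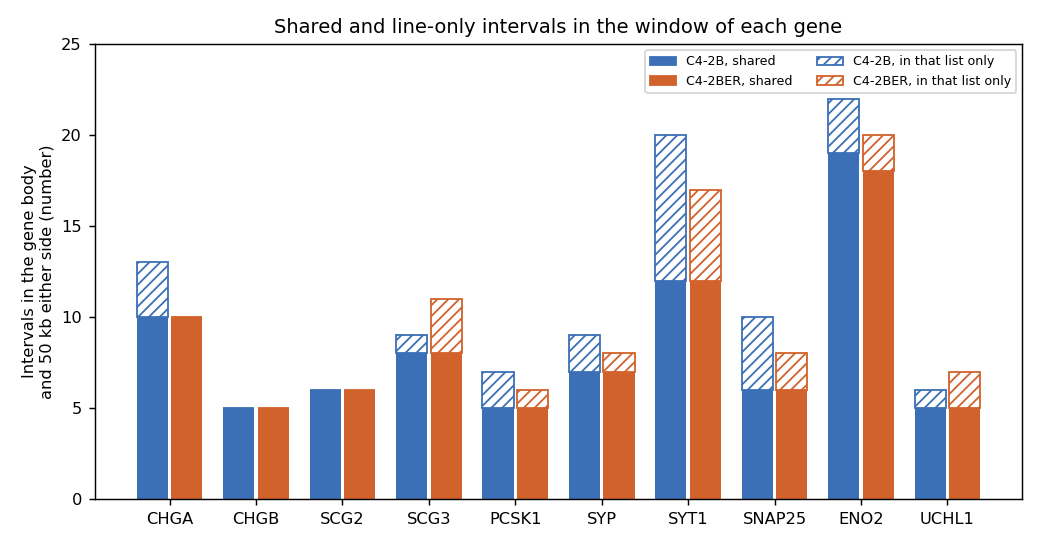
Number of intervals in the gene body and 50 kb either side of each gene, by list, with those shared between the lists filled and those of that list only hatched. CHGB and SCG2 have no line-only interval in either list, and SYT1 has 8 for C4-2B and 5 for C4-2BER.

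Of the 107 C4-2B intervals, 24 were line-only, that is without an overlapping interval in the other list (22.4%, Wilson 95% interval 15.6 to 31.2), against 37.7% of the whole list. Of the 98 C4-2BER intervals, 16 were line-only (16.3%, 10.3 to 24.9), against 20.8%. When the C4-2B list was cut to the 118728 intervals of C4-2BER, the order of the lines turned, with 15.7% for C4-2B and 24.5% for C4-2BER. Only C4-2B intervals were removed, so the C4-2BER share could not fall. Of the line-only intervals, 21 of 24 in the C4-2B list and 10 of 16 in the C4-2BER list were distal, against 93.4% and 87.5% of all line-only intervals. By class, 29.2% of the distal member intervals of C4-2B and 16.4% of those of C4-2BER were line-only, against 41.9% and 22.4% of all distal intervals. At own promoters 1 C4-2B and 5 C4-2BER intervals were line-only, where 15.7% and 13.6% of all promoter intervals were. The 5 were those of UCHL1, ENO2 and the internal SYT1 site. The line-only intervals had a median of 17.5 reads in C4-2B (range 9 to 48) and 18.0 in C4-2BER (range 9 to 70).

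The number of line-only intervals per gene was small, and the Wilson intervals of CHGB (0 to 43.4%) and SYT1 (21.9 to 61.3%) in the C4-2B list overlap. CHGB and SCG2 shared every interval, with 5 and 6 in each list. At CHGA all 10 C4-2BER intervals were shared and 3 of 13 C4-2B intervals were not. SYT1, the longest gene at 588 kb, had 8 of 20 line-only in C4-2B and 5 of 17 in C4-2BER. SNAP25 had 4 of 10 and 2 of 8. ENO2 lies among many neighbouring promoters and had 22 and 20 intervals, of which 14 and 12 were at a neighbour's promoter.

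The strongest line-only distal interval of C4-2B was upstream of PCSK1, 45.9 kb from the start site (chr5:96478990-96479536, 48 reads, percentile 77.4). The others with the highest −log10 p of their window in C4-2B held 14 to 41 reads. Among them were one 523 kb inside SYT1 with 27 reads, one 46.5 kb inside SNAP25 with 23, one 5.25 kb upstream of SCG3 with 21 and one 16.0 kb upstream of CHGA with 16. ENO2 (16.2 kb downstream, 41 reads), SYP (22.5 kb downstream, 15 reads) and UCHL1 (50.9 kb downstream, 14 reads) completed them. In C4-2BER they held 21 reads 110 kb downstream of the SNAP25 start site, 19 reads 46.2 kb downstream of that of SCG3, 17 reads 257 kb inside SYT1 and 10 reads downstream of PCSK1.

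Shared sites could be compared by reads. Over the 51 shared distal C4-2B intervals in the windows the median ratio of C4-2BER to C4-2B was 0.945, against 0.835 over all 73257 shared distal intervals. Over the 10 at own promoters it was 1.09, the same as over all 19928 shared promoter intervals. Of the distal ones, 4 were at least 1.5-fold higher and 8 at least 1.5-fold lower, or 7.84% and 15.7%, against 8.47% and 32.4% of all shared distal intervals. Within SYT1, 10 of 11 shared distal intervals were below 1, with a median of 0.756, while its promoter was 4.73-fold higher. The counting interval of each of these 11 distal ratios includes 1. The SYT1 distal median also lies between the quartiles of all shared distal intervals, 0.598 and 1.11. Most of those were below 1 too, so low distal ratios are not particular to SYT1. Distal medians were 0.741 over 9 intervals at CHGA and 1.05 over 3 at CHGB.

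**Figure D4:**
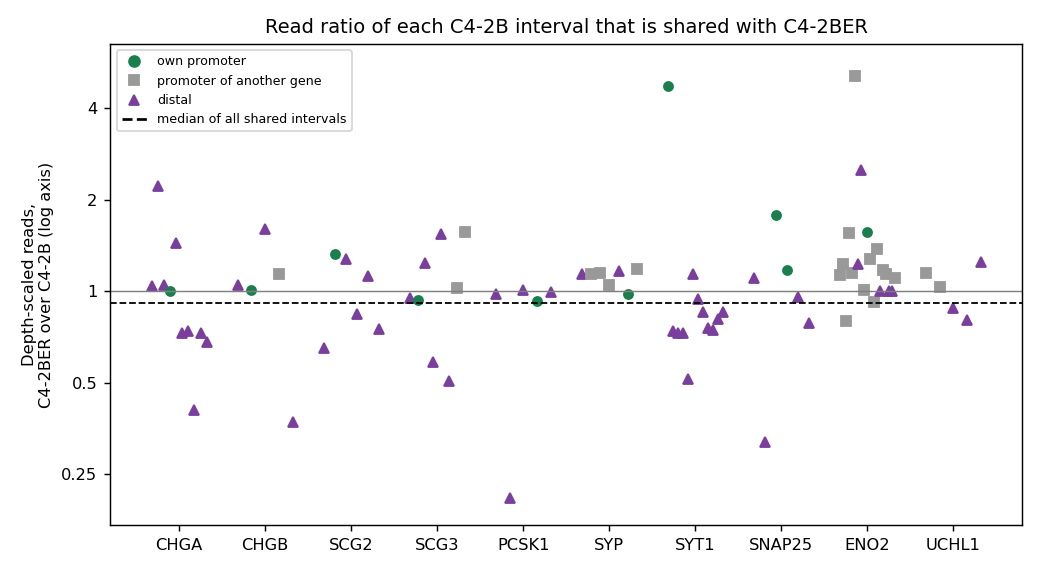
Ratio of depth-scaled reads, C4-2BER over C4-2B on a log axis, of every C4-2B interval in the 10 windows that is shared, by gene and in order of position, with own promoters, promoters of other genes and distal sites marked and the median of all shared intervals, 0.913, as a dashed line. The SYT1 promoter stands at 4.73 above its distal sites, the highest site is the promoter of SPSB2, a neighbour of ENO2, at 5.09, and the lowest is inside PCSK1 at 0.208. The PCSK1 ratio is between summits at different positions of overlapping intervals.

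The shared distal sites farthest from 1 were singled out after their values were seen. The lowest was inside PCSK1, 30.4 kb downstream of the start site (chr5:96402289-96403191), with 69 C4-2B and 12 C4-2BER reads (ratio 0.208, interval 0.103 to 0.387). The C4-2B summit was at 96402863, past the end of the C4-2BER interval (chr5:96402349-96402853), which had its summit at 96402531. That ratio therefore compares different positions and is not a fold at 1 position. A site inside the SNAP25 gene, 32.5 kb upstream of the canonical start site (chr20:10185637-10186630), went from 109 to 29 reads (ratio 0.318, interval 0.204 to 0.483). Sites 59.1 kb downstream of CHGB and 37.7 kb downstream of CHGA had ratios of 0.372 and 0.406, and one 45.0 kb downstream of SCG3 had 0.504. In the other direction, a site 14.5 kb upstream of ENO2 went from 32 to 67 reads (ratio 2.51, interval 1.62 to 3.95) and one 20.2 kb upstream of CHGA from 14 to 26 (ratio 2.22, interval 1.12 to 4.60). At SNAP25 the lower site accompanied a promoter with a read ratio of 1.78, and at PCSK1 one with a ratio of 0.928.

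The machinery around the 10 genes was described with 57 further genes of granule cargo, granule and vesicle membrane, fusion and the cytoplasmic families. Their start site was covered for 43 of them by C4-2B intervals and for 47 by C4-2BER intervals, with 42 in both, 5 in C4-2BER only, 1 in C4-2B only and 9 in neither. These are 82.5% covered in C4-2BER and 75.4% in C4-2B, where all genes had 69.7% and 65.6%, and the single-list counts stand beside 5.47% and 1.32% of all genes. Among the 5 were RIMS1, a scaffold of the release site, the vesicle protein genes SV2A and SYN3, and the peptide gene GRP. RIMS1 and GRP had promoter read ratios below 1, with intervals that include no change, of 0.853 (interval 0.651 to 1.12) and 0.920 (0.361 to 2.27), and SV2A had 1.76 (1.13 to 2.77). The 1 was CALCA, the gene of calcitonin. Among the top 50000 intervals of each list, 11 were covered in C4-2BER only.

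Of the 52 related genes with a promoter interval in both lists, 10 rose by at least 10 rank points and 3 fell, beside 10.8% and 4.59% of all genes. The 6 largest rises were SYT2, a synaptotagmin, from 35.8 to 79.9, SYNGR1, a synaptogyrin, from 31.9 to 60.0, SLC18A1, a vesicular monoamine transporter, from 25.5 to 53.1, SYNGR3 from 58.6 to 83.0, ADCYAP1, the gene of the peptide PACAP, from 49.7 to 73.8 and PCSK1N, an inhibitor of prohormone convertase 1, from 50.9 to 69.6. The falls were SLC18A2 from 72.9 to 52.4, DOC2B from 71.7 to 59.7 and SST, somatostatin, from 80.7 to 70.1. The read ratio intervals of SYNGR1, SLC18A1, PCSK1N, DOC2B and SST included no change, and those of SYT2, SYNGR3, ADCYAP1 and SLC18A2 did not. The start sites of SLC18A1 and SLC18A2 were covered in neither list. The median read ratio was 1.17 over these 52 genes, 1.01 over the 9 marker genes and 1.10 over all genes. By class, the start site was covered in C4-2BER for 20 of 22 fusion genes, 15 of 19 membrane genes and 9 of 12 cargo and processing genes, and in C4-2B for 18, 13 and 9. Over all genes the shares were 69.7% in C4-2BER and 65.6% in C4-2B.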

How the data were processed

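ATAC-seq was done on C4-2B and C4-2BER, 2 libraries each. Per the study's methods, the authors trimmed adapters with cutadapt, aligned read pairs to hg38 with Bowtie2, removed duplicates with Picard, merged the libraries of a line and called peaks with macs2 (version not given in the sources used here). The submitters' processing notes also name FastQC and bedtools 2.17. The deposited lists give, per summit, a score (not used), the fold enrichment over local background as a ratio, −log10 p and −log10 q, and the summit offset.

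Reads under each summit and list depth were solved from the deposited fold and −log10 p, assuming an extension of 200 bp and a genome size of 2700000000. On 19310 simulated summits 100% were recovered. Summits of 1 interval were joined. Intervals were shared where they overlapped by 1 bp or more. Promoters were within 2000 bp of a start site of a protein-coding transcript, or of a canonical transcript of another type. Coverage of the canonical start site, read ratios (1.5-fold), ranks (10 points) and windows of 50 kb were described without tests, with Wilson intervals for shares. Start sites came from GENCODE 44. Sequences were read from hg38 or, for promoter shares, from RefSeq.

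All 10 genes were named. Distal line-only intervals were named by the highest −log10 p per window and list, and related genes where the start site was covered in 1 list or the rank moved by 10 points, up to 6 each way. The members and lists were chosen with earlier results of these data known. Python 3.11.15, numpy 2.4.6, pandas 2.3.3, scipy 1.17.1 and matplotlib 3.10.9 were used. Alternatives covered stricter and equal-sized lists, depth scaling, windows, start sites and overlap. Some related genes, regulators and sequences are not reported here.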

Additional observations from a re-analysis of the deposited data

How the results depend on the processing

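No paired analysis was possible because the libraries of each line were merged before peak calling, which also meant that no replicate could be left out. Of the alternative values, 104 stayed within the range set for no change and 11 moved. That range was wide: 1.5-fold either way for a count, and the 95% interval of the main value for a share or read ratio. A fall from 3 to 2 genes was within it, and so were the values with lists of equal size at which the order of the lines turned. Equal list size and depth scaling take intervals only from C4-2B, so some counts could move in a single direction only. With the top 50000 intervals of each list, the windows held 51 C4-2B and 59 C4-2BER intervals, the line-only shares were 13.7% and 27.1%, and 11 related genes were covered in C4-2BER only. With any start site of a protein-coding transcript that last count was 3. With 100 kb either side the windows held 194 and 157 intervals, and with the gene body alone 42 and 41. Counting each summit gave 149 in C4-2BER. Scaling by the median promoter ratio left 2 genes 1.5-fold higher. The comparisons of interval width under other settings were chosen after seeing the data. Weak sites below 8 C4-2B or 7 C4-2BER reads are not listed, so absence from a list is not absence of signal.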
